A study of Mus musculus with 16 samples.

Results

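Transcript levels of 5 subunits of the phagocyte NADPH oxidase, Cybb, Cyba, Ncf1, Ncf4 and Rac2, were examined in mouse hamstring muscle. The members were the rows of the mouse table of normalized counts whose gene symbol was one of these names. That rule found 1 row for each, so 5 of the 26382 genes in the table, and all 5 were among the 16414 genes that passed the filter on low values. The membrane-bound core of the enzyme is a heterodimer of the catalytic subunit gp91phox (NOX2), encoded by Cybb, and its stabilizing partner p22phox, encoded by Cyba. In resting phagocytes the organizer p47phox (Ncf1) and the accessory subunit p40phox (Ncf4) stay in the cytosol, and on activation they move to the membrane together with the GTPase Rac2. The assembled enzyme passes electrons from NADPH to oxygen and releases superoxide, a main product of the respiratory burst of neutrophils and macrophages. Inherited loss of the human counterpart of Cybb, Cyba, Ncf1 or Ncf4 causes chronic granulomatous disease.

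The study induced muscle inflammation by injecting recombinant murine histidyl-tRNA synthetase (HRS), the antigen of anti-Jo-1 autoantibodies, into the hamstrings of female C57BL/6 mice aged 8 to 10 weeks, with muscle collected 14 days later. Bulk poly(A) RNA was sequenced in 16 libraries from 9 mice. The HRS leg group held the left legs of 5 mice (m862 to m866) given HRS at 3 to 5 mg/mL, and the contralateral PBS leg group held the right, PBS-injected legs of the same 5 mice. The PBS-only group held both legs of 2 mice (m867 and m868) that received PBS alone, so its 4 libraries came from 2 animals, and the HRS-MBP group held 1 library from each of 2 mice (m860 and m861) whose titles name an MBP fusion protein at 2 to 3 mg/mL, with no side stated. The treatment label of the HRS-MBP mice gives HRS at 3 to 5 mg/mL, and the protocol describes injection of both hamstrings, whereas the titles assign HRS and PBS to opposite legs. The titles were followed here, since they alone separate the legs. No untreated muscle was included in these 16 libraries. The comparisons are against PBS-injected tissue, except that of HRS-MBP with the HRS leg.

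Library totals of the normalized counts ran from 726797 to 1252358. The size of the smallest step between low values implied 8600000 to 73900000 reads per library, with the right leg of m868 the shallowest. Values divided by that step give an implied read number, which is an estimate and not a recovered count. The lowest implied for any member's value was 11, for Ncf4 in a PBS-only leg, and the highest was 32588, for Cybb in the HRS leg of m864. Defining genes of skeletal muscle fibre were abundant in all 16 libraries, the sum over 6 of them (Ckm, Acta1, Myh1, Myh4, Mb and Tnnt3) lying between 34568 and 163000.

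The members lie on 4 chromosomes. Cybb occupies chrX:9435252-9487771, Cyba chr8:122424776-122432930 and Ncf1 chr5:134220053-134229625, all on the minus strand of GRCm38. Ncf4 (chr15:78244801-78262580, plus strand) and Rac2 (chr15:78559167-78572783, minus strand) share chromosome 15. Cyba overlaps Gm20388 and Ncf1 overlaps Gtf2ird2 on the opposite strand. The library kit keeps strand, but whether counting used it is not stated in the sources used here, so reads of these 2 members and of their overlapping genes may not have been fully separated. No annotated gene overlapped Cybb, Ncf4 or Rac2.

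Promoter sequence bears on genes that move together, so the RefSeq windows of the members (assembly GRCm38.p6, 250 bases before to 50 bases after the annotated start) are shown for the 3 of 5 members that matched, Cybb at chrX:9469275-9469574, Cyba at chr8:122432891-122433190 and Ncf1 at chr5:134229576-134229875. All 3 are written 5' to 3' along the gene's own minus strand. The Cybb window lies inside the longer gene model of the annotation above. Capitals mark matches, on either strand, to any of 5 motifs searched, namely the purine-rich ETS core GAGGAA bound by PU.1, the interferon response element (GAAA, any 2 bases, GAAA), the C/EBP motif TTNNGCAA, the gamma-activated site TTCNNNGAA and the NF-kappaB motif (GGGA, any 2 bases, TTCC). Ncf4 and Rac2 are named only.
Cybb: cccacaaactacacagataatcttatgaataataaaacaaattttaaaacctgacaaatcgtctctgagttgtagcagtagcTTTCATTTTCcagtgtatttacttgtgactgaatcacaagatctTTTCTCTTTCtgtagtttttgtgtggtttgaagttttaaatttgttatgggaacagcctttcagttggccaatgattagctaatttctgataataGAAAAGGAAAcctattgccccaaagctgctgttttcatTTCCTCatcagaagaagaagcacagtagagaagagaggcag
Cyba: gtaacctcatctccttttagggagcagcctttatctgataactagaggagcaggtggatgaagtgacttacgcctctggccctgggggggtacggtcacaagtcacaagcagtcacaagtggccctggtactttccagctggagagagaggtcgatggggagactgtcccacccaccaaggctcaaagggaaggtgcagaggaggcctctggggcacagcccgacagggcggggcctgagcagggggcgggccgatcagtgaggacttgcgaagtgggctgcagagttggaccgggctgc
Ncf1: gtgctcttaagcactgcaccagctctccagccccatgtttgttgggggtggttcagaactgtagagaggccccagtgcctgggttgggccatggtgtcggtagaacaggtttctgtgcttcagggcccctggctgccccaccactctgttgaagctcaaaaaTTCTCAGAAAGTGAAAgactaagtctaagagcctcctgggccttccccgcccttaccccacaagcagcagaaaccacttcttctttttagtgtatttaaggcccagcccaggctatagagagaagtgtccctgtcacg

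The Cybb window held 3 matches to the interferon response element, beginning 168, 124 and 29 bases before the start, and 1 match to the ETS core on the opposite strand, beginning 9 bases after it. The Ncf1 window held 1 match to the interferon response element 82 bases before the start, and it overlapped 1 match to the gamma-activated site that began 88 bases before the start. No match to any of the 5 motifs was found in the Cyba window. Among all 32851 windows of the same length, 3.44% held the interferon response element, 28.3% the ETS core, 8.30% the gamma-activated site, 10.8% the C/EBP motif and 1.47% the NF-kappaB motif. A match describes letters in the window and not binding.

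The first comparison asked how far the subunit transcripts in HRS-injected muscle exceeded those in the PBS-injected leg of the same mouse. All 5 subunits were higher in the HRS leg, by 12.1-fold (Ncf1) to 26.8-fold (Cybb) in group means, and the groups did not overlap for any of them. The share of all tested genes without overlap was not counted, here or in the comparisons below. The 5 were called, at an adjusted p below 0.05 and an absolute log2 fold change above 1, against a background of 23.2% of all tested genes called in either direction 16.9% called higher and 6.27% called lower. Because this is bulk tissue, more cells of a type and more RNA per cell cannot be told apart.

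Cybb had the largest difference. Its normalized count in the HRS leg was 208 in m862, 281 in m863, 582 in m864, 208 in m865 and 94.9 in m866. In the contralateral PBS leg it was 5.42, 11.6, 15.9, 7.85 and 10.5 in the same mice. The lowest HRS leg thus lay well above the highest PBS leg. The log2 fold change was 4.52 (SE 0.389), with an adjusted p of 1.93e-06 by limma with Benjamini-Hochberg adjustment, and it ranked 27 by size among the 16414 genes tested.

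Cyba, the partner that Cybb protein needs to be stable, was 109, 131, 239, 105 and 43.8 in the HRS legs of m862 to m866. The PBS legs of these mice gave 6.73, 9.77, 8.59, 10.2 and 11.4. The contralateral legs were more alike for Cyba than for the other subunits, with the highest 1.70 times the lowest. The log2 fold change was 3.50 (SE 0.311; limma adjusted p = 1.93e-06).

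Among the cytosolic subunits, Ncf1 encodes p47phox, whose phosphorylation starts assembly. It was 54.2, 74.2, 126, 50.3 and 25.8 in the HRS legs of m862 to m866 and 2.78, 5.28, 8.58, 3.94 and 6.79 in their PBS legs. The log2 fold change was 3.38 (SE 0.347; limma adjusted p = 4.19e-06). These groups did not overlap, although the HRS leg of m866 at 25.8 was the nearest to the PBS legs. Ncf4 encodes p40phox, which binds phosphatidylinositol 3-phosphate on phagosomes. It was the least abundant member, at 18.4, 22.1, 41.6, 17.7 and 8.72 in the HRS legs and 1.12, 1.17, 1.66, 0.471 and 2.24 in the PBS legs. Its log2 fold change of 3.51 (SE 0.338; limma adjusted p = 2.63e-06) is on the scale of log2(normalized count + 0.5), which understates the change of a gene this low, and it ran from 2.71 with a pseudocount of 2 to 3.87 with the smaller pseudocount tried. Its PBS legs rested on as few as 16 implied reads.

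Rac2, the Rac GTPase of blood cells, was 53.7, 69.1, 117, 48.9 and 35.3 in the HRS legs and 2.18, 4.94, 6.84, 2.82 and 5.98 in the PBS legs. The log2 fold change was 3.67 (SE 0.341; limma adjusted p = 2.10e-06). Across the 5 members the adjusted p of limma stayed at or below 0.0017 in all 21 alternatives of processing and of left-out libraries, and the call held in each. Exact two-sided permutation of the 10 legs gave p = 0.00794 for each member, the smallest value that 5 against 5 allows. It treats the legs as independent, although they are paired within 5 mice.

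**Figure D1:**
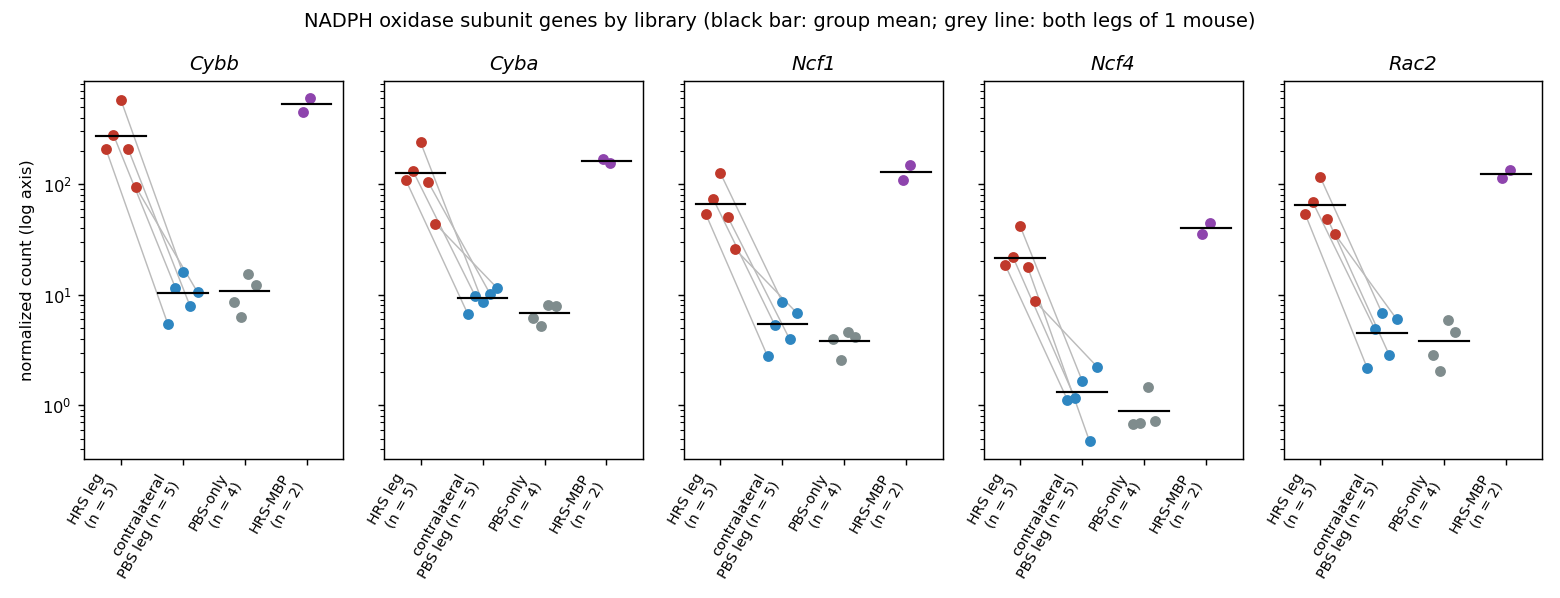
Normalized count (log axis) of each subunit gene in all 16 libraries, by group; each point is 1 library, black bars are group means and grey lines join the legs of 1 mouse. Every HRS leg and HRS-MBP library lies above every PBS leg, and the grey line of m866 (HRS leg 94.9 against 10.5 for Cybb) is the shallowest in each panel.

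The HRS legs kept a single order for all 5 genes, with m864 highest, followed by m863, m862, m865 and m866. The contralateral legs showed 4 different orders over the 5 genes. Within mice, the ratio of the HRS leg to the PBS leg was above 1 in 5 of 5 mice for every member. For Cybb it was 38.4 in m862, 24.2 in m863, 36.5 in m864, 26.5 in m865 and 9.03 in m866. m866 had the lowest ratio for each subunit, at 3.83 for Cyba, 3.80 for Ncf1, 3.90 for Ncf4 and 5.90 for Rac2. The mouse with the highest ratio changed with the gene, being m862 for Cybb, Ncf1 and Rac2, m864 for Cyba and m865 for Ncf4. In m865 the Ncf4 ratio of 37.7 rested on a PBS leg of 16 implied reads. The mean within-mouse log2 difference was 4.52 ± 0.83 for Cybb, 3.50 ± 1.04 for Cyba, 3.38 ± 0.88 for Ncf1, 3.51 ± 1.03 for Ncf4 and 3.67 ± 0.72 for Rac2 (SD, 5 mice). An exact two-sided sign-flip permutation test gave p = 0.0625 for each, the smallest value that 5 mice allow. With mouse as a fixed block in limma, all 5 remained called, with adjusted p between 0.000608 and 0.0017.

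The libraries at the ends of this order also stood at the ends for macrophage and muscle fibre markers. The HRS leg of m866 had the lowest sum of 10 macrophage markers (1257, against 2957 to 6380 in the other HRS legs) and the highest muscle fibre sum (142014, against 34568 to 84400). The HRS leg of m864 had the highest macrophage sum (6380) and the lowest muscle fibre sum (34568). The part of these differences in tissue make-up in the results was not tested. Without the HRS leg of m866 the log2 fold change against the contralateral legs was 4.84 for Cybb and 3.83 for Cyba, and without that of m864 it was 4.18 and 3.22.

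Against muscle of mice that received PBS alone, the HRS legs were again higher for all 5 members, beside 24.8% of tested genes called in either direction and 18.9% called higher. This comparison uses the same HRS legs as the one above. Cybb was 8.67 and 6.35 in the right and left legs of m867 and 15.5 and 12.3 in those of m868. Cyba was 6.14 and 5.18 in m867 and 8.13 and 7.95 in m868, and Ncf1 was 4.01 and 2.59 in m867 and 4.61 and 4.17 in m868. Ncf4 was 0.682 and 0.687 in m867 and 1.46 and 0.717 in m868, and Rac2 was 2.87 and 2.02 in m867 and 5.94 and 4.56 in m868. For each gene the highest PBS-only leg was the right leg of m868, the shallowest library. The log2 fold change of the HRS leg over PBS-only was 4.45 (SE 0.413) for Cybb, 3.93 (SE 0.330) for Cyba, 3.78 (SE 0.368) for Ncf1, 3.87 (SE 0.358) for Ncf4 and 3.88 (SE 0.362) for Rac2, each called by limma. No member's groups overlapped, and the exact two-sided permutation p was 0.0159 for each, the smallest that 5 against 4 allows. Legs of 1 mouse are not independent animals, and these p-values treat them as such.

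The PBS-injected legs of HRS mice were then set against the legs of PBS-only mice, to ask whether the subunits differed in muscle away from the HRS injection. None of the 5 members was called, where 0.00609% of tested genes, that is 1 gene (Nr4a2, log2 fold change -1.88, limma adjusted p = 0.0354), was called in either direction and 902 had an unadjusted p below 0.05. None of the 5 members was among these 902. Cybb differed by a log2 fold change of -0.07, with a 95% confidence interval from -0.95 to 0.81. The interval was -0.28 to 1.12 around 0.42 for Cyba, -0.39 to 1.18 around 0.39 for Ncf1, -0.40 to 1.12 around 0.36 for Ncf4 and -0.56 to 0.97 around 0.21 for Rac2. The groups overlapped for every member. The intervals still include differences of about 1 log2 unit for Cyba, Ncf1, Ncf4 and Rac2 in the direction of the HRS mice, so smaller changes could not be detected with these libraries. For Cyba 1 of the 5 contralateral legs, that of m862 at 6.73, fell within the PBS-only range of 5.18 to 8.13, and the other 4 lay above it (exact two-sided permutation p = 0.0635). The 4 PBS-only legs came from 2 mice, and the intervals and p-values of this comparison treat them as independent.

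**Figure D2:**
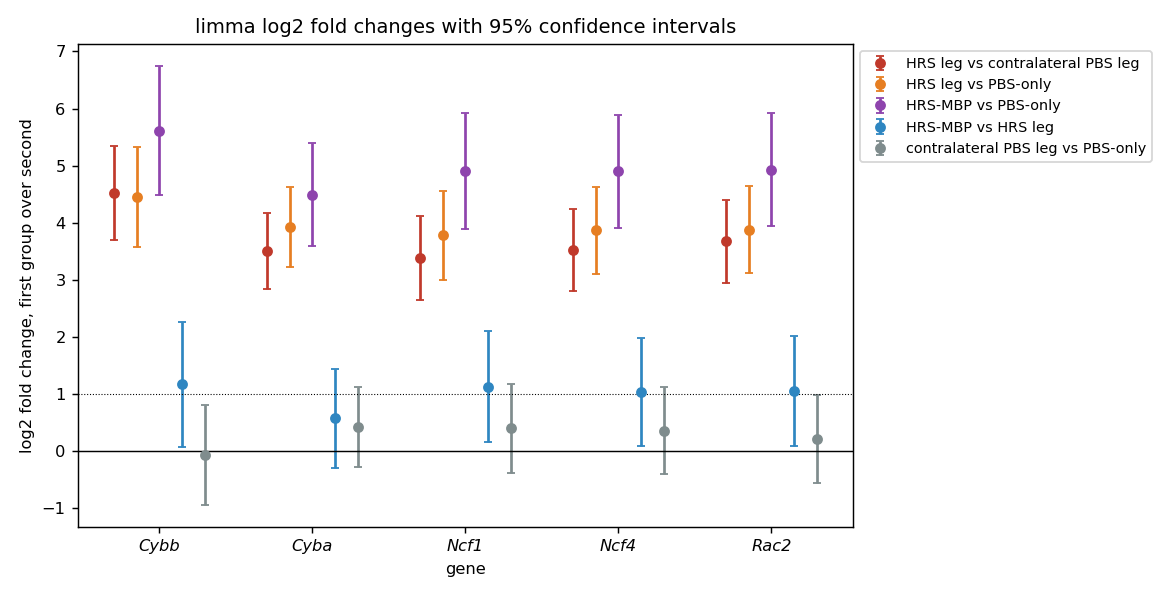
log2 fold change of the 5 subunit genes in 5 comparisons from 1 limma fit of all 16 libraries; points are estimates, bars are 95% confidence intervals and the dotted line marks a log2 fold change of 1. The comparisons of HRS or HRS-MBP muscle with PBS muscle lie between 3.38 and 5.61, and those of the contralateral PBS leg with PBS-only between -0.07 and 0.42.

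Both HRS-MBP libraries carried high levels of every subunit. Cybb was 452 in m860 and 600 in m861, Cyba 169 and 156, Ncf1 109 and 148, Ncf4 35.3 and 44.9, and Rac2 115 and 133. Against PBS-only the log2 fold change was 5.61 (SE 0.533) for Cybb, 4.49 (SE 0.426) for Cyba, 4.91 (SE 0.475) for Ncf1, 4.90 (SE 0.462) for Ncf4 and 4.93 (SE 0.467) for Rac2, and limma called all 5, where 30.9% of tested genes were called in either direction and 20.7% higher. Neither library overlapped the PBS-only legs, but exact permutation of 2 against 4 libraries cannot go below p = 0.133. Both this permutation and the limma fit treat the 4 PBS-only legs of 2 mice as independent.

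Between HRS-MBP and HRS legs no member was called by limma, beside 0.463% of tested genes called, although 4 of the 5, all but Cyba, had an unadjusted p below 0.05, as had 14.4% of all genes tested. The estimates were positive, at 1.17 for Cybb (95% confidence interval 0.07 to 2.26, limma adjusted p = 0.322), 1.13 for Ncf1 (0.15 to 2.10, adjusted p = 0.286), 1.05 for Rac2 (0.09 to 2.01, adjusted p = 0.312), 1.03 for Ncf4 (0.08 to 1.98, adjusted p = 0.315) and 0.57 for Cyba (-0.31 to 1.44, adjusted p = 0.542). Several leukocyte marker lists, though not that of neutrophils (-0.64), lay on the same side in this comparison, with median log2 fold changes of 0.98 for macrophage, 0.90 for all-leukocyte, 1.33 for T cell and 1.58 for B cell markers beside 1.05 for the members, and none of these markers was called. Their part in the estimates was not tested. Every HRS-MBP value for the 5 members fell above 4 of the 5 HRS legs. The HRS leg of m864 was above both HRS-MBP libraries for Cyba, at 239, and between them for the other 4 members. Without the HRS leg of m864 Ncf1 differed by 1.40 with a limma adjusted p of 0.0488 and was called, and the other members were not. Protein, concentration and side all differ between these groups or are not stated, and they cannot be told apart.

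The members did not move in fixed proportion. The largest shift was that of Cybb against the other subunits, measured as the difference in log2(normalized count + 0.5) within 1 library. These balances are descriptions and carry no test. Cybb minus Cyba was 0.92 to 1.29 in the HRS legs, -0.36 to 0.85 in the contralateral legs, 0.27 to 0.89 in the PBS-only legs and 1.41 to 1.94 in the HRS-MBP libraries. The HRS legs thus overlapped none of the other groups, and the difference was higher in the HRS leg than in the PBS leg in 5 of 5 mice. Cybb minus Ncf1 was 1.86 to 2.21 in the HRS legs, 0.59 to 1.07 in the contralateral legs and 1.02 to 1.65 in the PBS-only legs, which the HRS legs did not overlap, but it was 2.01 to 2.04 in the HRS-MBP libraries, within the range of the HRS legs. Both separations from the PBS legs held with the smaller and the larger pseudocount tried, the larger being 2.

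Cybb minus Rac2 (1.41 to 2.31 in HRS legs, 0.76 to 1.33 in contralateral legs) and Cybb minus Ncf4 (3.37 to 3.79 against 1.87 to 3.11) also lay apart at a pseudocount of 0.5 and of 2, but overlapped at the smaller one. Both overlapped the PBS-only range at 0.5. The other 6 of the 10 pairs overlapped between the HRS and contralateral legs at 0.5. Ncf1 minus Rac2, for example, was -0.44 to 0.10 in the HRS legs and 0.09 to 0.42 in the contralateral legs. In the HRS-MBP libraries Cyba stood low against Ncf1, at 0.07 to 0.63, below the HRS legs at 0.75 to 1.05, and this held at each of the 3 pseudocounts.

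**Figure D3:**
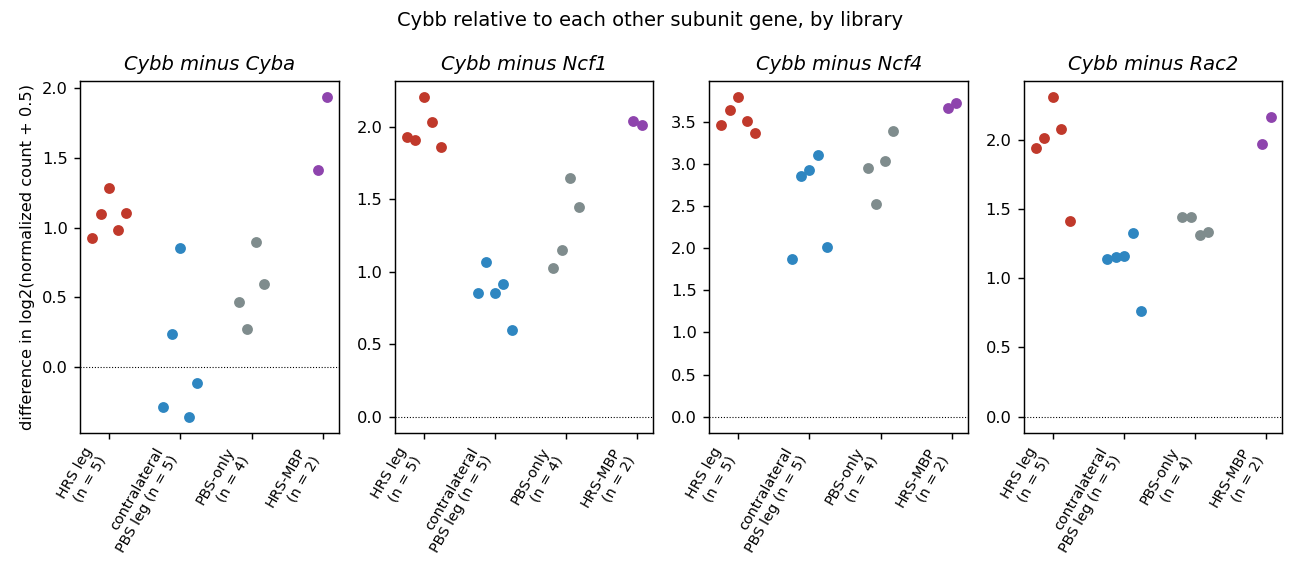
Difference in log2(normalized count + 0.5) between Cybb and each other subunit gene within a library, by group; each point is 1 library and the dotted line marks equal values. For Cybb minus Cyba the HRS legs (0.92 to 1.29) lie above the contralateral legs (-0.36 to 0.85) and below the HRS-MBP libraries (1.41 to 1.94).

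Levels of different genes can be set side by side only per length. Per kilobase of exon, the mean normalized count in the HRS legs was highest for Cyba at 121 ± 68.3 (SD, n = 5), then 47.3 ± 31.7 for Cybb, 20.9 ± 10.2 for Rac2, 18.0 ± 10.3 for Ncf1 and 10.7 ± 6.01 for Ncf4. In the contralateral legs the means were 8.99 ± 1.71 for Cyba, 1.77 ± 0.685 for Cybb, 1.47 ± 0.645 for Rac2, 1.49 ± 0.626 for Ncf1 and 0.659 ± 0.326 for Ncf4 (SD, n = 5). Cyba was the highest of the 5 and Ncf4 the lowest in each of the 4 groups by this measure. In the HRS legs the ranges of neighbours in this order overlapped between libraries, but within each of the 5 HRS legs the order was Cyba, Cybb, Rac2, Ncf1 and Ncf4. Rac2 and Ncf1 did not differ beyond their spread. With the longest coding transcript in place of all exons the order of their means in the HRS legs turned, to 22.9 ± 13.0 for Ncf1 and 21.3 ± 10.4 for Rac2 (SD, n = 5), though not the order in m866.

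Genes of oxidase assembly and activation were higher as well. Of 21 such genes tested, 20 were called higher in the HRS leg than in the contralateral leg and none lower, beside 16.9% and 6.27% of all genes tested, with a median log2 fold change of 2.92 beside 0.08 over all tested genes. The 3 with the largest rise were Itgb2, the common beta chain of leukocyte integrins (log2 fold change 4.08, SE 0.388), Fcer1g, the signalling chain of Fc receptors (3.79, SE 0.328), and Pik3r5, a regulatory subunit of the gamma class of phosphoinositide 3-kinase (3.74, SE 0.336). Cybc1, a chaperone that the Cybb and Cyba proteins need, rose less, by 1.69 (SE 0.208). Its values were 16.8 to 44.2 in the HRS legs and 6.10 to 11.1 in the contralateral legs. Rap1a, a small GTPase that binds the membrane heterodimer, was the gene not called (0.16, SE 0.092, limma adjusted p = 0.151), at 52.7 to 66.2 and 45.5 to 57.3. The number called higher was 19 or 20 in the 21 alternatives. Beside the median of 2.92 for this list, that of all-leukocyte markers was 3.41, of NK cell markers 3.02, of macrophage markers 2.99 and of T cell markers 2.64. It was 1.90 for neutrophil, 1.90 for dendritic cell and 1.28 for B cell markers. The part of leukocyte content in the calls of this list was not tested.

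Of 11 oxidase homologues and partners outside the phagocyte core, 6 passed the filter and 1 was called higher, as were 16.9% of all genes tested. The count was 2 without the HRS leg of m866, without the contralateral leg of m865 or with the smaller pseudocount, and 3 with equal totals. Nox4, a homologue that also pairs with the Cyba protein and makes mainly hydrogen peroxide, ran from 2.31 to 11.0 in the HRS legs and from 2.02 to 2.71 in the contralateral legs, which overlapped (log2 fold change 1.29, SE 0.367, limma adjusted p = 0.00714), and it was no longer called after quantile normalization or with a pseudocount of 2. Rac1, the widely expressed relative of Rac2, was 188 to 231 in the HRS legs and 187 to 219 in the contralateral legs, a log2 fold change of 0.03 (SE 0.088, limma adjusted p = 0.766). Duoxa1, the maturation factor of Duox1 (0.88, SE 0.308, limma adjusted p = 0.0222), and Rac3 (0.77, SE 0.223, limma adjusted p = 0.00828) passed on p but not on size. Noxo1, the organizer that takes the place of Ncf1 beside other oxidases (0.47, SE 0.303), and Duox1 (0.22, SE 0.251) passed on neither. Nox1 and Duox2 were below the filter.

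Of 9 tested transcription factors known to act on myeloid oxidase genes, 5 were called higher and none lower, beside 16.9% and 6.27% of all genes tested, with a median log2 fold change of 2.91. Among them were Spi1, which encodes PU.1 (3.41, SE 0.337), Irf8 (3.32, SE 0.248), Runx1 (2.93, SE 0.451) and Irf1 (2.91, SE 0.360). Spi1 was 27.1 to 109 in the HRS legs and 2.28 to 6.19 in the contralateral legs. These 5 were called in each of the 21 alternatives. The 4 not called were Cebpa (0.26, SE 0.450), Cebpb (0.26, SE 0.180), Hoxa9 (-0.45, SE 0.127) and Hoxa10 (-0.39, SE 0.103).

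Of 22 tested genes of superoxide and peroxide handling, 5 were called higher and 1 lower, with a median log2 fold change of 0.16. Over all genes tested 16.9% were called higher and 6.27% lower, so these counts are near the background and nothing is read from them for the list. Hmox1, the haem oxygenase induced by oxidants, had the largest rise (3.16, SE 0.330, limma adjusted p = 4.83e-06), from 6.22 to 12.7 in the contralateral legs to 31.3 to 170 in the HRS legs. Prdx4, a peroxidase of the endoplasmic reticulum, rose by 1.43 (SE 0.243). Mpo, the myeloperoxidase of neutrophil granules, was called (1.41, SE 0.457, limma adjusted p = 0.0149) but ran only from 0 to 4.66 in the HRS legs and from 0 to 0.162 in the contralateral legs, so its size depends on the pseudocount. It was not called with a pseudocount of 2, where the log2 fold change was 0.62, or with mouse as a fixed block, and it was below the filter without the HRS leg of m863 or that of m864. Nqo1, a quinone reductase, fell by 1.49 (SE 0.501, limma adjusted p = 0.0184), although 1 HRS leg reached 40.4 and the groups overlapped. It was called in 18 of the 21 alternatives, and not without the HRS leg of m864, the HRS leg of m865 or the contralateral leg of m863. The number called higher ran from 3 without the HRS leg of m864 to 7 without that of m866.

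Of 12 tested genes that supply NADPH, the electron donor of the enzyme, 2 were called, beside 23.2% of all genes tested. The number called rose to 5, of which 3 were higher, without the HRS leg of m866, to 4 without the contralateral leg of m866 or with equal totals, and to 3 without the HRS leg of m865, and it was 2 in the other alternatives. Nadk, the NAD kinase of the cytosol, was called higher (1.21, SE 0.221) and Me1, the cytosolic malic enzyme, lower (-1.72, SE 0.329), with a median of 0.18. G6pdx, which opens the pentose phosphate pathway, was not called (0.96, SE 0.405, limma adjusted p = 0.0512). It passed in 3 of the 21 alternatives.

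**Figure D4:**
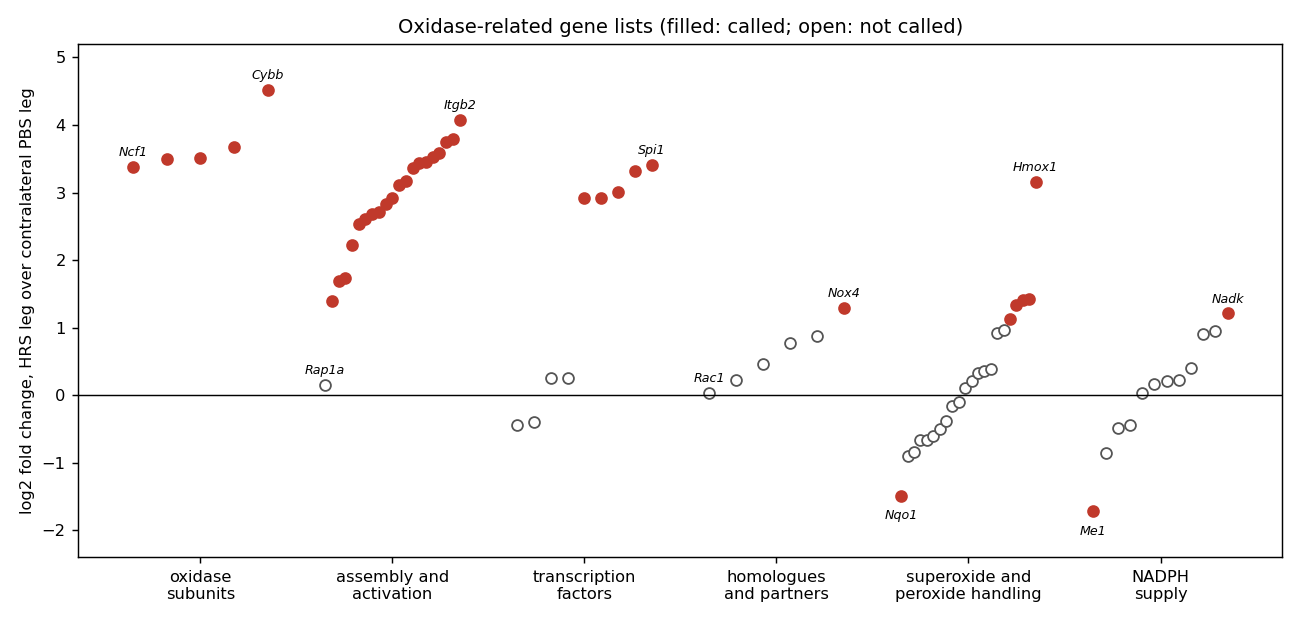
log2 fold change of the HRS leg over the contralateral PBS leg for the genes of 6 lists; each point is 1 gene, filled where called and open where not. All 5 subunits are filled and lie between 3.38 and 4.52, and the assembly list holds 20 filled points of 21, whereas lists of peroxide handling and NADPH supply spread around medians of 0.16 and 0.18.

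Markers of several leukocyte types moved with the subunits. Fcgr1 stands both among the assembly genes and among the macrophage markers, and Mpo both among the peroxide genes and among the neutrophil markers. All 10 macrophage markers were called higher in the HRS leg, beside 16.9% of all genes tested, and their summed normalized count was 1257 to 6380 in the HRS legs, 153 to 391 in the contralateral legs, 133 to 285 in the PBS-only legs and 5394 to 5780 in the HRS-MBP libraries. Of 10 tested neutrophil markers 9 were called higher. Several of them, such as Camp, Mmp8, Retnlg and Mpo, averaged below 0.5 in both PBS groups and passed the filter only through HRS or HRS-MBP muscle. Their calls as higher were thus partly set by the filter. Sums of different lists are not set per length and do not compare cell types. The neutrophil sum over 12 genes was 10.7 to 165 in the HRS legs, 1.28 to 4.89 in the contralateral legs, 0.850 to 3.28 in PBS-only and 70.7 to 84.5 in HRS-MBP. Csf3r, the receptor for granulocyte colony-stimulating factor, alone was 9.06 to 63.1 in the HRS legs and 53.5 to 63.9 in HRS-MBP. Over the 10 tested markers the median log2 difference of HRS-MBP from the HRS legs was -0.64, with none called. Ly6g, a defining neutrophil marker, stayed below 0.5 in every library, as did Siglecf of eosinophils. Of 4 listed eosinophil markers 3 were in the table, and they summed to 0.405 to 1.61 in the HRS legs and 0.0641 to 0.835 in the contralateral legs. All 6 T cell markers, all 5 NK cell markers, 4 of 5 tested B cell markers and 4 of 6 dendritic cell markers were also called higher. Several of these, such as Cd3d, Lck, Ncr1, Ms4a1 and Flt3, likewise passed the filter only through HRS or HRS-MBP muscle, so these counts are partly set by it. By limma 0 of 5 endothelial markers were called, with log2 fold changes from -0.33 to 0.35 and 3 of them at an unadjusted p below 0.05, as were 65.4% of all genes tested. The B cell count was 0 of 5 with a pseudocount of 2, and 2 of 5 after quantile normalization or without the HRS leg of m864. The neutrophil count was 5 of 10 with a pseudocount of 2, 6 of 7 tested without that leg and 4 of 5 tested with a minimum mean of 2, where the dendritic cell count was 2 of 3 tested. The sum of 5 markers of all leukocytes was 227 to 995 in the HRS legs and 22.8 to 55.2 in the contralateral legs. Of the 6 muscle fibre markers 2 were called lower, Ckm (-1.18, SE 0.479) and Tnnt3 (-1.10, SE 0.424), and none higher. The 6 had a median log2 fold change of -1.05. The HRS legs had a summed fibre level between 34568 and 142014, with a median of 59251. It lay between 101195 and 163000 on the contralateral side, where the median was 153718, and the groups overlapped. The number called lower ran from 0 to 4 over the 21 alternatives, and after quantile normalization it was 0 with a median of -0.11. The part of cell numbers in the subunit differences was not tested.

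Set against the mean log2 level of the 10 macrophage markers in the same library, Cybb stood at 0.29 to 1.06 in the HRS legs and at -1.10 to -0.47 in the contralateral legs, without overlap. The other 4 members overlapped on this scale. Within a mouse, Cybb, Cyba, Ncf1 and Rac2 had the greater value on the HRS side in 5 of 5 mice and Ncf4 in 4 of 5, or, with a pseudocount of 2 (tried here after the data had been seen), Cyba in 4 of 5 and Ncf4 in 2 of 5. Cyba, for instance, was -0.69 to -0.23 in the HRS legs and -1.33 to -0.54 in the contralateral legs. Against the 5 markers of all leukocytes Cybb was 1.38 to 1.96 in the HRS legs and 0.28 to 0.88 in the contralateral legs, and the other members overlapped again. Within a mouse the HRS side had the greater value on that scale in 5 of 5 mice for Cybb, 4 for Rac2, 3 for Ncf4 and 2 each for Cyba and Ncf1. Rac2 was -0.65 to -0.04 and -0.93 to -0.28 on that scale. With a pseudocount of 2, Ncf4 instead stood lower in the HRS legs on that scale, at -2.01 to -1.76 against -1.72 to -0.90. Cybb did not overlap between the groups on either scale with any of the 3 pseudocounts tried. Log2 fold changes between these legs were 1.53 to 4.13 for the macrophage and 2.85 to 3.93 for the all-leukocyte markers, beside 4.52 for Cybb. The genes that followed Cybb most closely over the 16 libraries were Itgb2 (4.08), Fgr (4.42) and Vav1 (3.43). These genes were not set on the marker scales. Against the neutrophil markers, several of which lay near 0, all 5 members stood higher in the HRS legs without overlap with a pseudocount of 0.5 or 2, and Cybb alone did so with the smaller one.

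The genes whose log2 values followed the mean of the 5 members most closely over the 16 libraries were Tifa (Pearson's r = 0.998), Clec4a3, Fcer1g, Unc93b1, Itgb2, Fermt3, Tmem106a and Actb (r = 0.997). Itgb2 was closest to Cybb (r = 0.998), Lat2 to Cyba (r = 0.997), Pirb to Ncf1 (r = 0.998), Actb to Ncf4 (r = 0.994) and Clec4a3 to Rac2 (r = 0.996). The correlations are a description, since the 16 points share mice and the large step between HRS and PBS muscle.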

How the data were processed

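Bulk RNA of mouse muscle was analysed in 16 libraries of 4 groups, which follow the treatment labels and titles. The authors deposited normalized counts, a signal on a linear scale; how they were counted and scaled is not given in the sources used here. The submitters' processing notes name STAR 2.7.8a, limma and the build mm39 (GRCm39), but the coordinates in the deposited table are those of GRCm38 (GENCODE M21), which were used, with each gene's end taken from that annotation. Low values came out as a whole number of steps, within 0.02 steps, in 75.4% to 77.7% of cases per library, too few to take reads as recovered, so count tests were left out and read numbers are given only as implied by the step. The number of columns of per-sample values left unused was 0. No pair of libraries held identical values.

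Values were tested as log2(normalized count + 0.5) for the 16414 of 26382 genes with a mean of at least 0.5, in 1 limma 3.58.1 fit (R 4.3.3) of the 4 groups with a mean trend and Benjamini-Hochberg adjustment over all tested genes; genes with an adjusted p below 0.05 and an absolute log2 fold change above 1 were called. The fit was tested on simulated data. Exact permutation tests used scipy 1.17.1 (Python 3.11.15). The legs of m862 to m866 are paired because they come from the same animals, although the mean correlation of their deviations was -0.0025 within mice and -0.0068 between mice. Alternatives were a smaller and a larger pseudocount, filters, scalings, blocks and sets of libraries. The members and lists were chosen with earlier results of these data known. Named were the 5 members, the 3 largest called rises and falls of each list and all tested homologues; Cybc1, Rap1a, G6pdx, Runx1 and Irf1 were named after their values were seen, and 1 gene that the rule names is not reported here. P-values measure only the spread between these libraries.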

Additional observations from a re-analysis of the deposited data

Results flagged for a closer look

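In 50 groups of 4 or 5 values, a library stood apart from the others by Dixon's criterion at the 95% level in 5. Many of these groups are built from the same values, so the chance rate of about 1 in 20 for independent groups is no reference here. For Ncf1, the log2 difference between the HRS and PBS legs was 1.85 in m866 and 3.52 to 4.06 in the other 4 mice. For Ncf4 among the PBS-only legs, the log2 value of the right leg of m868, the shallowest library, was 0.97, and the other 3 legs lay between 0.24 and 0.28. The remaining 3 cases were balances between subunits in the HRS leg of m866. Cyba minus Ncf4 was 2.26 there and 2.51 to 2.54 in the other HRS legs, Cyba minus Rac2 was 0.31 and 0.91 to 1.10 elsewhere, and Ncf1 minus Rac2 was -0.44 and 0.02 to 0.10 elsewhere. Of the 5 cases, 4 thus concern m866, whose HRS leg had the lowest macrophage and the highest muscle fibre sum.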

How the results depend on the processing

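Every member kept its call and direction against PBS muscle: in 105 of 105 fits for the HRS against the contralateral leg (log2 fold change 2.71 to 4.92), 100 of 100 against PBS-only (2.90 to 4.83) and 85 of 85 for HRS-MBP against PBS-only (3.87 to 6.07). Over all genes, the median difference between the legs (log2) went from 0.08 to 0.45 with equal totals and to -0.16 with quantile normalization; higher and lower calls were 2781 and 1029, against 4172 and 322 with equal totals and 2093 and 1632 with quantile normalization. With the replicate block, mouse as a random block gave 3772 called genes and a fixed block 3657, beside 3810, and no member's call changed with the pairing.

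Between the contralateral PBS leg and PBS-only, 1 gene was called. The count was 0 with the smaller pseudocount, without a filter, with equal totals, with only the 2 groups in the fit and with PBS-only legs averaged per mouse, and 2 with quantile normalization; it was 0 to 2 when single libraries were left out. In that comparison leaving out single libraries moved Cybb between -0.28 and 0.13, turning its direction without the contralateral leg of m862 (0.13) or m865 (0.0035) or the right (0.13) or left (0.020) leg of m868. Rac2 ran from -0.026, without the left leg of m867, to 0.42. Between HRS-MBP and the HRS leg, 76 called genes became 35 with a minimum mean of 2 and 8 with only the 2 groups in the fit, and 11 (without m861) to 578 (without m864) with libraries left out; it was 49 without m863, 134 without m860 and 179 without m866. Ncf1 ran from 0.84 to 1.40, being called at 1.40 without m864. For these losses and gains the cause was not tested. With a pseudocount of 2, the shift in median balance between HRS and contralateral legs turned from -0.26 to 0.26 for Ncf1 minus Ncf4 and from 0.19 to -0.48 for Ncf4 minus Rac2. Depth limits Ncf4 most, at 11 to 83 implied reads in PBS muscle.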
